A study of Mus musculus with 6 samples.

Results

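The cytoskeletal genes described here are 7 genes tied to the oligodendrocyte cytoskeleton: Tppp, Tppp3, Tubb4a, Gsn, Ermn, Dock5 and Plekhh1. They were chosen by name, and all 7 had a row among the 35275 gene identifiers of the deposited tables. Messenger RNA had been sequenced from the forebrains of 6 C57BL/6 mice at postnatal day 9. In the conditional knockout group (cKO), 3 mice carried a floxed Parp1 gene on both alleles (Parp1fl/fl) and Pdgfra-CreER, a recombinase that tamoxifen switches on in cells using the Pdgfra promoter, chiefly oligodendrocyte precursors but also some cells outside the lineage, such as meningeal fibroblasts. The control group held 3 Parp1fl/fl littermates without the recombinase. All 6 mice had received tamoxifen intraperitoneally on postnatal days 1, 2 and 3, so no group was without the drug, and no group carried the recombinase with an intact Parp1. Each library was made from whole forebrain tissue and not from sorted cells. In such tissue, fewer cells of a type and less RNA per cell cannot be told apart, and no gene's counts can be assigned to oligodendrocytes alone.

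Oligodendrocytes change shape more than most cells as they mature. A precursor extends branched processes along microtubule tracks and growing actin filaments, and the actin is later dismantled as membrane spreads and wraps around axons. Proteins that bundle microtubules, cut actin or switch on Rac-type GTPases take part in these steps, and several of their genes are used as markers of differentiating oligodendrocytes. Some are also active elsewhere: Tubb4a is known from neurons as well, and Gsn from fibroblasts and many other cells.

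None of the 7 genes passed the test between cKO and control forebrains, while 10 of 13 tested oligodendrocyte markers fell in the same comparison. Levels are in CPM, counts scaled to a common library size after TMM, a correction for library composition, and 16938 genes entered edgeR's quasi-likelihood test, with p-values adjusted by Benjamini and Hochberg's method. Genes with an adjusted p under 0.05 count as called, which 0.266% of all tested genes were, 0.207% lower and 0.059% higher in cKO, a split that was nearly even with DESeq2 (62 lower and 51 higher). Of the 7 genes, 0 were called and 0 had an unadjusted p under 0.05, against 6.27% of all tested genes. DESeq2 and limma-voom called 0 of the 7 as well; at an unadjusted p under 0.05 DESeq2 had 0 and limma-voom 1, Tubb4a. The log2 fold changes of cKO against control ran from -0.10 for Tppp3 to 0.38 for Ermn, with a median of -0.05, beside a median of -0.00068 over all tested genes. Only in Ermn did the libraries of the groups not overlap, a separation seen in 11.9% of all tested genes (6.08% higher and 5.86% lower in cKO).

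**Figure D1:**
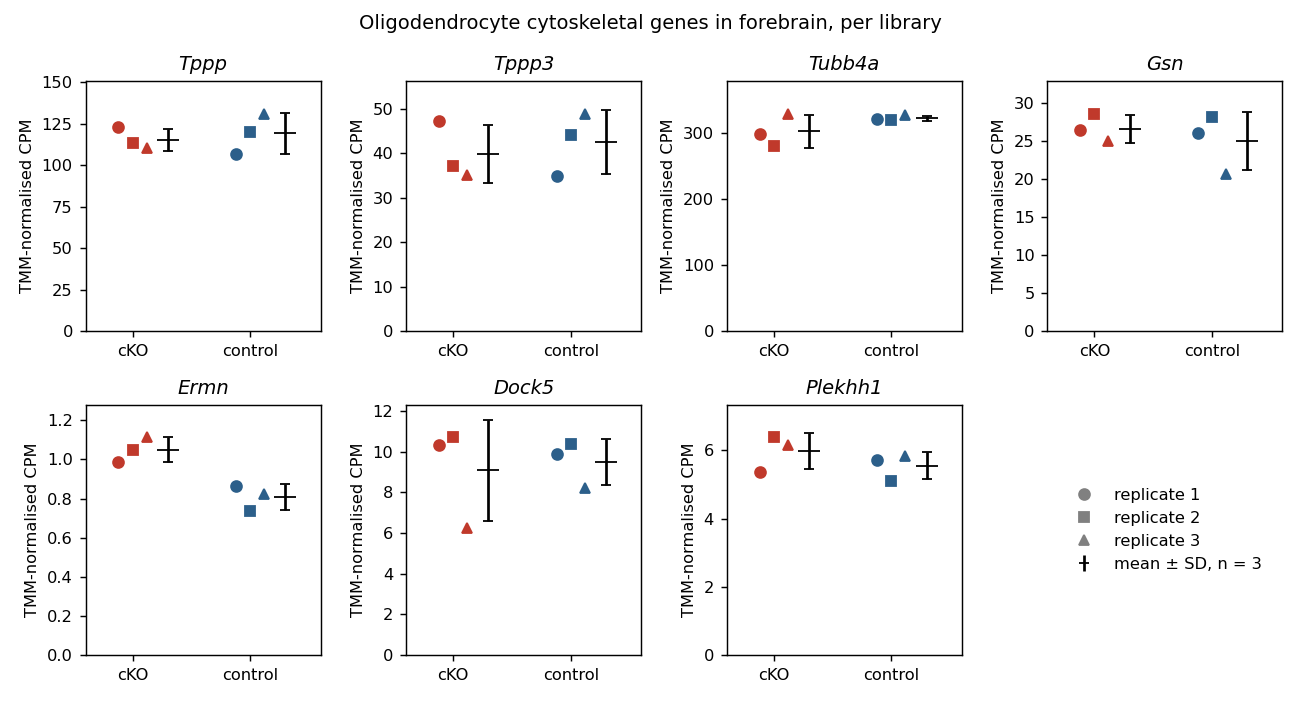
Level of each gene in TMM-normalised CPM (linear axis from 0) in the 3 cKO and 3 control libraries, with marker shapes for the replicate numbers and black bars for the mean ± SD (n = 3 mice). The groups overlap in every panel except that of Ermn, where the cKO libraries run from 0.987 to 1.11 CPM and the control libraries from 0.736 to 0.866 CPM.

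Total counts ranged from 17262042 to 29310193 per library. The first principal component (38.6% of the variance) set control replicate 3 apart, at 35.2 against -12.5 to -2.89 for the other 5 libraries. Its summed striatal markers were at 224 CPM, against 694 to 806 CPM in cKO and 697 to 902 CPM in the other control libraries, and its thalamic markers were at 624 CPM, against 242 to 287 CPM in cKO and 252 to 271 CPM in the other control libraries. Control replicate 1 alone had Y-linked counts (1123 of Ddx3y, against at most 1 elsewhere). The forebrain markers were present at a summed 379 to 434 CPM in cKO and 376 to 386 CPM in controls, and hindbrain markers at 0.565 to 1.04 CPM in cKO and 0.736 to 3.06 CPM in controls, with Hoxb5 and Hoxb8 at 0. Parp1 was at 79.8 ± 0.843 CPM in cKO forebrains, against 91.2 ± 5.84 CPM in control forebrains (SD, n = 3 each), and its log2 fold change of -0.19 did not pass edgeR's test (adjusted p = 0.572). The Parp1 counts cover all cells of the forebrain, so they do not measure the deletion within the lineage.

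Per length of transcript, the 7 genes spanned a wide range of levels. In deposited FPKM, which scale counts to depth and gene length, Tubb4a was the highest at 135 ± 10.1 in cKO and 145 ± 0.363 in controls (SD, n = 3 mice each). Tppp3 followed at 28.5 ± 5.18 FPKM in cKO and 30.5 ± 4.98 FPKM in controls, then Tppp at 22.6 ± 1.72 FPKM in cKO and 23.4 ± 2.25 FPKM in controls. The libraries of Tppp3 and Tppp overlapped in FPKM, so their order was within the spread. Gsn came next with 10.1, 10.7 and 9.21 FPKM in the cKO libraries and 9.85, 10.7 and 7.72 FPKM in the control libraries. Plekhh1 and Dock5 overlapped with each other, at 0.925 ± 0.0689 and 0.878 ± 0.249 FPKM in cKO and at 0.864 ± 0.0550 and 0.920 ± 0.118 FPKM in controls. Ermn was the lowest, at 0.288 ± 0.0122 FPKM in cKO and 0.222 ± 0.0175 FPKM in controls.

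Of the genes acting on microtubules, Tppp encodes the tubulin polymerisation-promoting protein TPPP/p25, which binds and bundles microtubules and is abundant in myelinating oligodendrocytes (ENSMUSG00000021573, chromosome 13, 74009407 to 74035753 in mm10). Tppp was at 123, 113 and 110 CPM in cKO replicates 1, 2 and 3, against 107, 120 and 131 CPM in control replicates 1, 2 and 3. The cKO libraries lay within the range of the controls, whose lowest and highest values enclosed all others. The log2 fold change was -0.05 (95% confidence interval -0.22 to 0.12; edgeR adjusted p = 0.944), and without control replicate 3, the highest library, it was 0.019. Permuting the 6 CPM values exactly gave a two-sided p of 0.7, where 3 mice against 3 cannot go below 0.1.

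Tppp3 encodes a shorter relative of TPPP that also binds microtubules (ENSMUSG00000014846, chromosome 8, 105467493 to 105471526). It was at 47.3, 37.1 and 35.2 CPM in the cKO libraries, against 34.8, 44.1 and 48.9 CPM in the controls. Each group held both high and low libraries, from cKO replicate 1 and control replicate 3 at the top to control replicate 1 at the bottom. The log2 fold change was -0.10 (interval -0.44 to 0.23; edgeR adjusted p = 0.938). It was -0.24 without cKO replicate 1, -0.23 without control replicate 1 and -0.0013 without control replicate 3. Since Tppp3 is also used as a marker of ciliated ependyma, the 7 ependymal markers are given beside it. Their summed level was 33.7 to 34.3 CPM in cKO and 35.2 to 39.5 CPM in controls, without overlap, and 0 of 7 were called. In 3 of the 7, every cKO library was below every control library, a separation found in 5.86% of all tested genes. The part of the ependymal markers in the Tppp3 values was not tested. Tppp2, the remaining gene of the family, was near the limit of detection, with 2, 0 and 0 counts in cKO and 0, 0 and 1 in controls.

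Tubb4a encodes a beta-tubulin of brain microtubules, mutated in people with a leukodystrophy of poor myelin formation (ENSMUSG00000062591, chromosome 17, 57080066 to 57087782). Beta-tubulin genes are alike in their coding sequence, which bears on how reads are assigned to Tubb4a. The start and the end of the coding sequence are shown for Tubb4a and 3 relatives, 5′ to 3′ from the GENCODE M21 transcripts; capitals mark bases that differ from Tubb4a in a global alignment or are added to it. The first 60 coding bases encode the shared amino end of beta-tubulins.
Tubb4a start: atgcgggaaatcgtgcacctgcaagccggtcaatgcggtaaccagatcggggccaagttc
Tubb4b start: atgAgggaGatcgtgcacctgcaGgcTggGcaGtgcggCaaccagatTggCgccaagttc
Tubb2a start: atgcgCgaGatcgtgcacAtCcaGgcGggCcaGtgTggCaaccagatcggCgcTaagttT
Tubb3 start: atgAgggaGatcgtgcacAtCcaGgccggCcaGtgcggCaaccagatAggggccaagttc
The end, stop codon included, encodes the acidic tail that tells beta-tubulin isotypes apart.
Tubb4a end: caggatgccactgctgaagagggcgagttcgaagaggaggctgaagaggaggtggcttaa
Tubb4b end: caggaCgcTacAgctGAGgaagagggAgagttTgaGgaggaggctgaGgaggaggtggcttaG
Tubb2a end: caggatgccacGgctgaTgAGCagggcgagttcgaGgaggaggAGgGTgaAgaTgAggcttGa
Tubb3 end: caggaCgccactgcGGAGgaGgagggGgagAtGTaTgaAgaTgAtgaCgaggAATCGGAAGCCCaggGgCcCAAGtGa

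Over the whole coding sequence of 1335 bases, Tubb4a was 83.4% identical to Tubb4b, 84.2% to Tubb2a, 83.5% to Tubb3 and 84.6% to Tubb2b. In the start window Tubb4b differed at 9 bases, Tubb2a at 13 and Tubb3 at 9, and in the end window 11, 14 and 34 bases differed or were added. Over the whole Tubb4a transcript, its untranslated parts included, 4 of the 2179 stretches of 50 bases (0.184%) also occurred in another gene's transcript.

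Tubb4a stood at 299, 280 and 329 CPM in the cKO libraries, against 322, 319 and 327 CPM in the controls. The controls lay close together, while 2 cKO libraries were below them and cKO replicate 3 was above all 5 others. Its log2 fold change of -0.09 had an interval from -0.24 to 0.06 (edgeR adjusted p = 0.870); without cKO replicate 3 it was -0.16, with an unadjusted p of 0.0410 and an adjusted p of 0.946. Among the FPKM of 7 beta-tubulin genes, Tubb4a took 4.55 ± 0.315% in cKO and 4.50 ± 0.330% in controls (SD, n = 3 mice each). The largest share was that of Tubb2a, 29.5 ± 0.891% in cKO and 29.3 ± 1.28% in controls. Of the 15 tubulin genes other than Tubb4a, 0 were called by edgeR and 1 had an unadjusted p under 0.05: Tubb2b, with 1449 ± 37.3 CPM in cKO forebrains, against 1631 ± 129 CPM in control forebrains (log2 fold change -0.17, adjusted p = 0.785). The 8 neuron markers, of which Tubb3 is one, summed to 6153 to 6489 CPM in cKO and 6149 to 6722 CPM in controls, with 0 called, and their part in the Tubb4a values was not tested.

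Of the genes acting on actin, Gsn encodes gelsolin, which severs and caps actin filaments (ENSMUSG00000026879, chromosome 2, 35256380 to 35307892). Gsn was at 26.3, 28.5 and 24.9 CPM in the cKO libraries, against 26.0, 28.2 and 20.7 CPM in the controls. Control replicate 3 was the lowest of the 6, and the other 5 libraries were intermixed. The log2 fold change was 0.09 (interval -0.15 to 0.34; edgeR adjusted p = 0.921), and without control replicate 3 it was -0.035. The 7 leptomeningeal fibroblast markers, a cell type rich in gelsolin, had a summed level of 223 to 367 CPM in cKO and 232 to 293 CPM in controls. Of these 7 markers 0 were called and 3 had an unadjusted p under 0.05, all higher in cKO, against 6.27% of all tested genes in either direction. Whether these markers bear on the Gsn values was not tested.

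Ermn encodes ermin, an actin-binding protein made mainly by oligodendrocytes and related at its carboxyl end to ezrin, radixin and moesin (ENSMUSG00000026830, chromosome 2, 58045113 to 58052864). It was barely expressed, with 20, 26 and 32 counts in the cKO libraries and 15, 16 and 18 in the controls. These counts correspond to 0.987, 1.05 and 1.11 CPM in cKO against 0.866, 0.736 and 0.821 CPM in controls, so every cKO library was above every control library. The log2 fold change of 0.38 had an interval from -0.28 to 1.05 and did not pass edgeR's test (adjusted p = 0.879). The exact permutation p, two-sided, was 0.1, the smallest that 3 against 3 can give, and 6.08% of all tested genes separated in the same direction. Exons of Ermn overlap those of Galnt5, on the opposite strand, by 237 bp. Galnt5 had 0 to 4 counts in cKO and 1 to 3 in controls, and 5.33% of the 50-base stretches of Ermn were shared with it when strand was ignored. Over all other genes, 6.44% of the Ermn stretches were shared, with 142 genes.

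Dock5 and Plekhh1 link the cytoskeleton to membrane signals. Dock5 encodes an exchange factor that switches on the GTPase Rac (ENSMUSG00000044447, chromosome 14, 67752135 to 67933442). Dock5 was at 10.3, 10.7 and 6.23 CPM in the cKO libraries, against 9.87, 10.4 and 8.21 CPM in the controls. Replicate 3 was the lowest library of each group, and cKO replicate 3 was the lowest of all 6, which gave Dock5 the widest spread of the 7 genes, 1.72-fold between its extreme libraries. The log2 fold change was -0.07 (interval -0.51 to 0.36; edgeR adjusted p = 0.968); without cKO replicate 3 it was 0.14 and without control replicate 2 it was 0.0022.

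Plekhh1 encodes a protein with pleckstrin homology, MyTH4 and FERM domains whose transcript is enriched in oligodendrocytes (ENSMUSG00000060716, chromosome 12, 79029163 to 79081655). It was at 5.38, 6.38 and 6.16 CPM in the cKO libraries, against 5.72, 5.11 and 5.84 CPM in the controls. The libraries of the groups were intermixed at the low end, and cKO replicates 2 and 3 were the highest. The log2 fold change was 0.11 (interval -0.23 to 0.44; edgeR adjusted p = 0.937), and it ran from 0.050 without control replicate 2 to 0.17 without cKO replicate 1. Its exons overlap those of Pigh, on the opposite strand, by 992 bp, and 14.1% of its 50-base stretches were shared with Pigh when strand was ignored. Pigh was at 5.23 ± 0.986 CPM in cKO forebrains, against 5.24 ± 0.612 CPM in control forebrains, close to the level of Plekhh1, so the Plekhh1 count is less certain if reads were counted without regard to strand.

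The intervals of all 7 genes left out a fall as large as that of Sox10. Sox10, a transcription factor of the whole oligodendrocyte lineage, was at 16.8 ± 0.301 CPM in cKO forebrains, against 44.7 ± 2.98 CPM in control forebrains (SD, n = 3 each), with an interval of the log2 fold change from -1.59 to -1.23. The lowest bound among the 7 cytoskeletal genes was -0.51, that of Dock5. The summed level of the 14 oligodendrocyte markers was 320 to 365 CPM in cKO and 781 to 904 CPM in controls, while the 7 cytoskeletal genes summed to 477 to 513 CPM in cKO and 506 to 542 CPM in controls, most of it Tubb4a. The markers themselves were not uniform: Bcas1, a marker of early myelinating oligodendrocytes, had a log2 fold change of -2.25 and Cnp, an enzyme of non-compact myelin, one of -0.52. Mog, a late myelin glycoprotein, was at -0.0039 (interval -0.37 to 0.36; edgeR adjusted p = 0.998), within the range of the cytoskeletal genes.

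**Figure D2:**
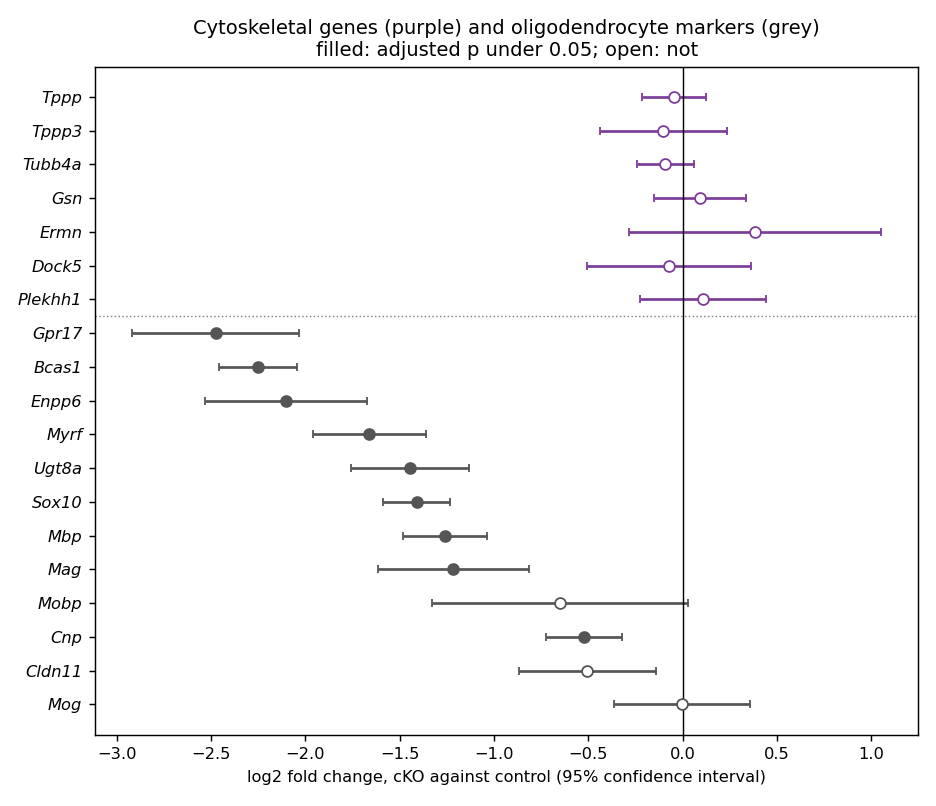
Log2 fold change of cKO against control with its 95% confidence interval for the 7 cytoskeletal genes (purple, top) and 12 tested oligodendrocyte markers (grey, below); filled points have an edgeR adjusted p under 0.05. The cytoskeletal genes lie between -0.10 and 0.38 with open points, and the markers between -2.48 and -0.0039, 9 of them filled.

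The level of each gene was also set against that of Sox10 within the same library, a ratio in which the scaling of the library cancels. For each of the 7 genes the ratio was higher in all 3 cKO libraries than in all 3 control libraries. Tppp stood at 6.61 to 7.32 times the CPM of Sox10 in cKO and at 2.24 to 2.93 times in controls. Ermn was at 0.0588 to 0.0674 times Sox10 in cKO and at 0.0177 to 0.0183 times in controls. In log2 units, the ratio was higher in cKO by 1.31 for Dock5, the smallest difference, and by 1.79 for Ermn, the largest. Each of the 7 exact two-sided permutation tests gave p = 0.1, the smallest possible here, so none could pass a threshold of 0.05. Any gene that did not fall with Sox10 has such a higher ratio in cKO. The share of all tested genes whose ratio separated the groups was not counted, so the separation says nothing particular about the members. The higher ratio was not particular to the cytoskeletal genes. Of the lineage genes, the ratio of Pdgfra to Sox10 was 6.41 to 8.15 in cKO and 3.36 to 4.01 in controls. That of Olig2, a transcription factor of the lineage, was 1.83 to 2.23 in cKO and 1.13 to 1.27 in controls, again without overlap. Pdgfra itself was lower in every cKO library, at 119 ± 17.7 CPM against 163 ± 14.9 CPM in controls (SD, n = 3 each). It did not pass edgeR's test (adjusted p = 0.253). In the precursor markers Neu4 and C1ql1, both called lower, the log2 changes were -2.47 and -1.72, larger falls than the -1.41 of Sox10. Their ratios to Sox10 were not computed. All 5 tested precursor markers, Pdgfra among them, were lower in cKO with an unadjusted p under 0.05 in edgeR's test. The ratio of Mbp, which encodes myelin basic protein, to Sox10 overlapped between the groups, at 6.61 to 7.41 in cKO and 5.77 to 7.29 in controls.

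**Figure D3:**
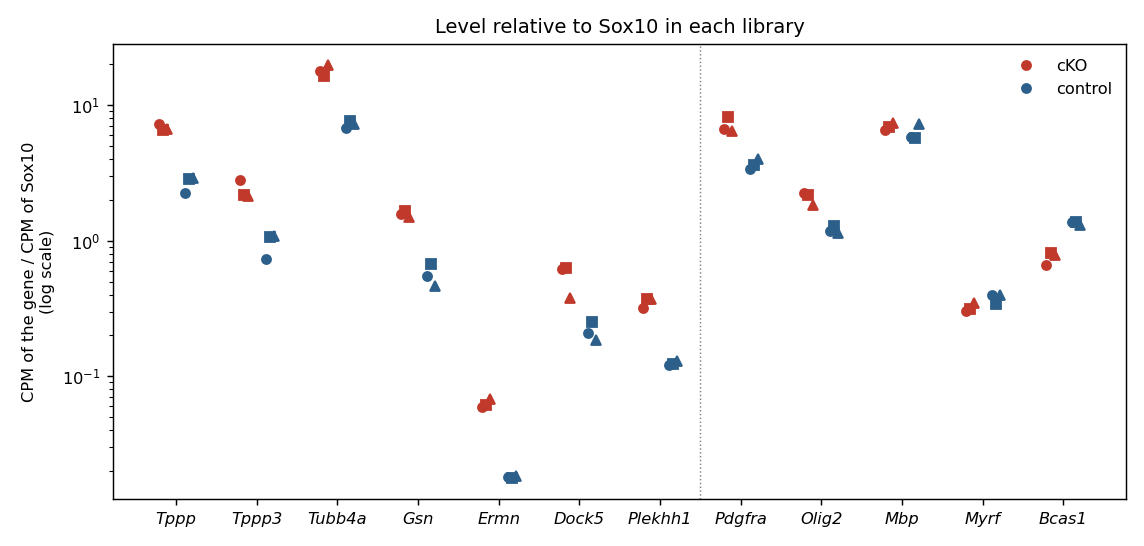
CPM of each gene divided by the CPM of Sox10 in the same library (log axis), for 3 cKO libraries (red) and 3 control libraries (blue), with marker shapes for the replicate numbers. All 7 cytoskeletal genes, left of the dotted line, have cKO libraries above the controls, as do Olig2 and Pdgfra, while Mbp and Myrf overlap and Bcas1 is lower in cKO.

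Sox10 and Myrf, another factor that drives myelin genes, both fell in cKO. The RefSeq promoters (GRCm38.p6, the assembly of mm10, 250 bases before to 50 after the start) were searched for short SOX and Myrf motifs. An E-box was searched for as well, which is not a motif of either factor. The promoters of Tppp, a microtubule gene whose level stayed within a narrow interval while Sox10 fell, and of Ermn, whose groups did not overlap, are shown 5′ to 3′ on the strand of the gene, chr13:74009169-74009468 (plus) and chr2:58052815-58053114 (minus). Capitals mark a motif match.
Tppp: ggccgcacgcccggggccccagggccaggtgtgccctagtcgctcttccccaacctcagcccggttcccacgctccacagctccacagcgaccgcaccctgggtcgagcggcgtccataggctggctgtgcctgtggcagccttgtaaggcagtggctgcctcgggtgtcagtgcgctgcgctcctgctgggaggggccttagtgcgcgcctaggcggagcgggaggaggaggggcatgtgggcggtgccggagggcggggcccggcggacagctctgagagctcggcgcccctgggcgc
Ermn: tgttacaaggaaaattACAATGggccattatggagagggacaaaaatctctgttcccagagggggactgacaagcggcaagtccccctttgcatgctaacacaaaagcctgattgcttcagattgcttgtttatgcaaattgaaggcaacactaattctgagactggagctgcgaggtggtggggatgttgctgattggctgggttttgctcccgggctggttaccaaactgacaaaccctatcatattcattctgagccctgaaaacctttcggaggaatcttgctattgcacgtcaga
The motifs were the SOX cores ACAAAG and ACAATG, the Myrf motif CTGGCAC and the E-box CAGCTG, on both strands, and no match overlapped another. Promoters were found for Tppp, Gsn, Ermn, Tubb4a and Plekhh1, 7 in all because Gsn has several starts. ACAATG occurred in the Ermn promoter alone, and in 12.6% of all 32851 promoters of this length. ACAAAG and CTGGCAC occurred in none of the 7, against 18.7% and 5.01% of all promoters, and CAGCTG in 2 of the Gsn promoters, against 16.3%. The Tppp promoter held none of the motifs, nor did those of Tubb4a and Plekhh1. It was 73.3% G and C, where the Ermn promoter was 47.0%. A match of so few bases does not show binding, and a link between these motifs and the levels of the genes was not tested.

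Among other genes of the same structures, 1 of 142 tested fell and none rose, where 0.266% of all tested genes were called. The lists held tubulins, microtubule-associated and motor genes, the gelsolin family, actin and its remodelling factors, the ERM family, Dock and Elmo genes, small GTPases and their effectors, genes related to Plekhh1, and septins. The called gene was Sirt2, a deacetylase of tubulin in oligodendrocytes, at 103, 114 and 111 CPM in the cKO libraries and 180, 158 and 171 CPM in the controls. Every cKO library was below every control library, and the log2 fold change was -0.63 (edgeR adjusted p = 6.11e-04). Exons of Sirt2 overlap those of Nfkbib, on the opposite strand, by 42 bp. Of the 142 genes, 11 had an unadjusted p under 0.05, near the 6.27% of all tested genes, and the median log2 fold change of all 142 was -0.02.

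Fyn, a kinase that passes axonal signals to the oligodendrocyte cytoskeleton, came closest after Sirt2. It was at 210, 224 and 230 CPM in the cKO libraries, against 278, 267 and 294 CPM in the controls, with no overlap. Its log2 fold change of -0.34 (interval -0.48 to -0.20) just missed the threshold (edgeR adjusted p = 0.0652), and it was called by DESeq2 (adjusted p = 0.00133) and without control replicate 3 (edgeR adjusted p = 0.0267), with a range over all alternatives from 0.00133 to 0.325. Stmn4, a microtubule-destabilising stathmin, was at 286 ± 18.8 CPM in cKO forebrains, against 335 ± 12.6 CPM in control forebrains (SD, n = 3 each; log2 fold change -0.23, edgeR adjusted p = 0.403).

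The closest relatives of the actin-linked genes gave no call by edgeR. In the gelsolin family 0 of 6 tested genes passed, with Capg, an actin-capping protein, at a log2 fold change of 0.26 and Vil1, villin, at -0.42 from levels under 2 CPM. Of 33 actin and actin-remodelling genes 0 passed and 0 had an unadjusted p under 0.05; the smallest p values were those of Arpc1b and Arpc3, subunits of the Arp2/3 complex, at 0.21 and -0.13. In the ERM list 0 of 10 passed, with Msn, moesin, at 0.17 and Epb41l2, a band 4.1 protein, at -0.14, both with an unadjusted p under 0.05. Among 13 Dock and Elmo genes 0 passed, with Dock2, an exchange factor of blood-derived and microglial cells, at 0.52 and Elmo1, a Dock partner, at -0.17, again with unadjusted p under 0.05. The 5 genes related to Plekhh1 included Myo7a, an unconventional myosin, at 0.15 and Plekhh2 at 0.16, and the 11 septin and anillin genes included Sept8 and Sept9 at -0.16 and -0.12, with 0 called in either list. Pak3, a kinase downstream of Rac, was at -0.18, and Tubb6, a minor beta-tubulin, at 0.37. Exons of Arpc1b, Vil1, Msn, Dock2, Elmo1 and Plekhh2 also overlap exons of opposite-strand genes, which leaves the uncertainty given for Plekhh1.

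**Figure D4:**
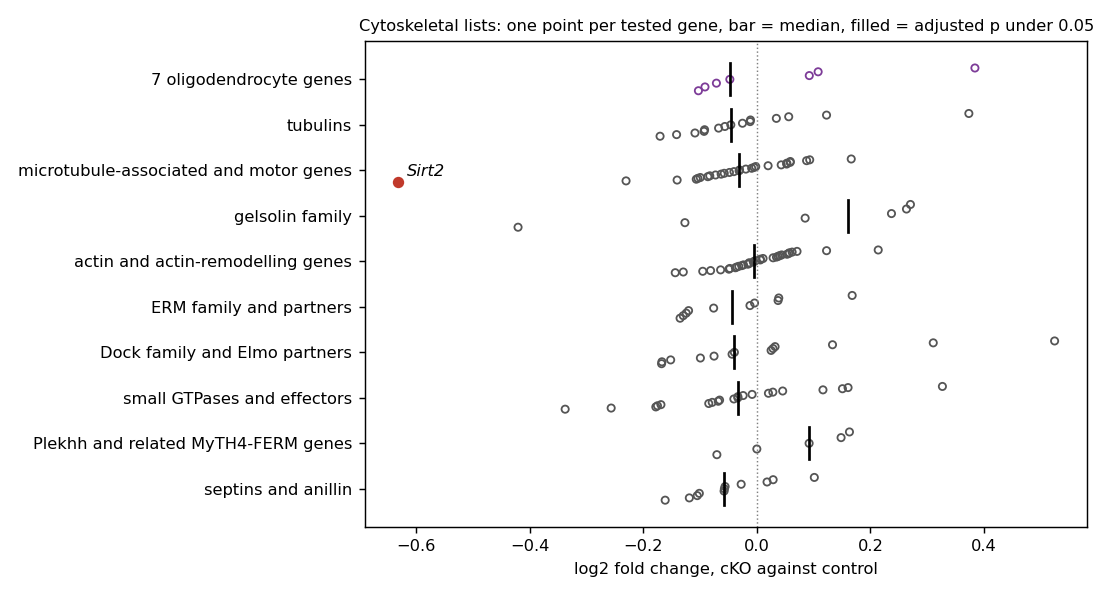
Log2 fold change of cKO against control for each tested gene of the 7 oligodendrocyte cytoskeletal genes (top, purple) and of the 9 other cytoskeletal lists, with the median as a black bar. List medians run from -0.06 to 0.16, and the filled point at -0.63 is Sirt2, the called gene.

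Similar profiles over the 6 libraries were found by the root-mean-square (RMS) difference of log2(CPM + 0.5), centred on each gene's own mean. Candidates were tested genes with a mean of at least 1 CPM (15240 of them, or 15241 for Ermn). The added 0.5 narrows the profile of Ermn most, at 0.736 to 1.11 CPM. None of the nearest genes was called, where 0.266% of all tested genes were. Tppp was closest to Mmab and Cxxc5 (RMS difference 0.0107 and 0.0188 log2 units), and Tppp3 to Tfcp2 and Thnsl1 (0.0414 and 0.0427). Tubb4a was closest to Srp14 and Smim8 (0.0151 and 0.0166), and Plekhh1 to Zkscan5 and Tarbp1 (0.0164 and 0.0282). For Gsn the nearest were Pdk3 and Zfp809 (0.0299 and 0.0331), and for Ermn they were 9530077C05Rik and Gpld1 (0.0411 and 0.0437). Dock5 had the most distant neighbours, Chn1os3 and Ly75 (0.0582 and 0.0624). No oligodendrocyte marker was among these 14 genes. The search picks profiles like those of members that were not called, so it could hardly pick a called gene or a marker that fell. Neither absence is a result about the members.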

How the data were processed

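Poly-A RNA had been made into directional libraries, as the labels' protocols state. Whole-number counts for each Ensembl gene were deposited. The submitters' processing notes list CASAVA, STAR 2.5, HTSeq 0.6.1, DESeq and build mm10 and give no roles. Strand setting and annotation release of the counting were not given in the sources used here. The deposited FPKM equalled the count divided by a fixed gene length and the table total, within 0.5 bp of length in 100% of values above 0. GENCODE M21 named 34490 of 35275 identifiers; the others took 0.119% to 0.130% of counts.

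Counts were tested with edgeR 4.0.16 in R 4.3.3: filterByExpr by group (minimum count 10, minimum total 15), TMM, robust quasi-likelihood, 3 cKO against 3 control mice, two-sided, with 95% confidence intervals. Read sharing was scored by 50-base stretches of GENCODE transcripts. The fits were tested on simulated data. No label says the mice were pooled or shared a litter by number, and no libraries agreed within sampling noise (chi-square per degree of freedom 3.48 to 17.4).

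Alternatives were other scaling factors or filters, DESeq2 1.42.0, limma 3.58.1 (voom, or log2(FPKM + 1) and log2(FPKM + 0.1) at a mean of at least 0.5 FPKM), a replicate block, and leaving out each mouse. The genes, lists and tests were chosen with earlier results of these data known. Named list genes are those called and otherwise the 2 with the smallest p; Galnt5, Pigh, Tppp2, Dock8, Rac2, Coro1a and the single markers and other beta-tubulins were added after values were seen. The values of 1 oligodendrocyte marker are not reported singly here.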

Additional observations from a re-analysis of the deposited data

How the results depend on the processing

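The count of called members of the 7 genes was 0 under every alternative run, including each left-out mouse, and their log2 fold changes kept their sign in all but 4 cases, all left-out mice. Across those fits Dock5 ran from -0.22 to 0.14, Tppp from -0.12 to 0.019, Gsn from -0.035 to 0.19, Tppp3 from -0.24 to -0.0013 and Plekhh1 from 0.050 to 0.17; the cause was not tested. Ermn could not be tested where a mean of at least 1 CPM or 0.5 FPKM was asked for. The number of genes called, 45 in the edgeR fit (35 lower and 10 higher), was 111 with no filter (61 lower and 50 higher in cKO), 113 with DESeq2 (62 and 51) and 24 with either FPKM pseudocount, and 28 to 60 when each mouse was left out, the lowest without control replicate 1; without cKO replicate 3 there were 24 lower and 19 higher. Of the other cytoskeletal genes 2 were called, Sirt2 and Fyn, with upper-quartile factors, library size alone, no filter, DESeq2 or limma-voom, and 1 or 2 when a mouse was left out. With the replicate number as a block 32 genes were called and 0 of the 7; same-numbered mice did not deviate together (correlations of -0.0105, -0.0585 and -0.00823), so the numbers were not taken as pairs. Depth limits Ermn most, with 15 to 32 counts per library. Where nothing says how mice were housed or processed, p-values measure the spread between these mice only.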

Other observations

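Some cytoskeletal genes known from microglia or from blood-derived cells were higher in the cKO libraries without passing edgeR's test. They were picked after their values were seen. Dock2 was at 8.79 ± 0.423 CPM in cKO forebrains, against 6.12 ± 1.55 CPM in control forebrains (SD, n = 3 each; edgeR adjusted p = 0.595), and Dock8, a relative, at 6.10 ± 0.231 CPM in cKO forebrains, against 4.93 ± 0.980 CPM in control forebrains (edgeR adjusted p = 0.837). Every cKO library was above every control library for both, a separation found in 6.08% of tested genes. Rac2, a GTPase of blood cells, overlapped, with 7.05, 6.74 and 7.23 CPM in cKO libraries, against 7.16, 5.57 and 4.15 CPM in control libraries. Coro1a, an actin-binding coronin that neurons also make, was at 99.9 ± 4.55 CPM in cKO forebrains, against 96.0 ± 2.08 CPM in control forebrains. The 7 microglia markers summed to 242 to 277 CPM in cKO and 165 to 225 CPM in controls, lowest in control replicate 3. Of these 7 markers 0 were called and 6 had an unadjusted p under 0.05 in edgeR's test, against 6.27% of all tested genes. In 6 of the markers every cKO library was above every control library. Their part in these values was not tested.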
